A study of Mus musculus with 16 samples.

Results

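The 10 genes of fatty acid uptake and binding described here were measured in inguinal subcutaneous adipose tissue (SAT) and mesenteric visceral adipose tissue (VAT) of lean and obese mice. The genes were Lpl, Cd36, Fabp3, Fabp4, Fabp5, Gpihbp1, Lmf1, Angptl4, Vldlr and Slc27a1. Their rows were found in the expression table by RefSeq identifier, and they comprised 59 of 130343 entries, each entry being 1 transcript. Of the 59, 19 held at least 1 count, 40 were at 0 in all libraries, and 13 entries of 8 genes passed the filter and were tested. All mice were male WT C57BL/6J. Obese mice ate a high-fat diet, with 42% of its energy from fat and 0.2% cholesterol, for 12 to 14 months from 10 weeks of age, and lean controls ate a normal laboratory diet over the same time. The left and right inguinal pads of a mouse were combined, and visible vasculature was dissected away from the tissue before storage. With 4 mice per diet and 1 library per mouse and tissue, the 16 libraries formed 4 groups of 4 (SAT lean, SAT obese, VAT lean, VAT obese).

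Adipocytes take up fatty acids from circulating lipoproteins in a chain of steps. Lipoprotein lipase (Lpl), matured with the help of Lmf1 and carried to the capillary surface by Gpihbp1, releases fatty acids from triglycerides, and Angptl4 inhibits it. Vldlr binds triglyceride-rich lipoproteins, Cd36 and Slc27a1 (FATP1) assist the entry of fatty acids into the cell, and the binding proteins Fabp3, Fabp4 and Fabp5 carry them inside it. Fabp4 is the classic adipocyte form, Fabp5 is shared by adipocytes and macrophages among other cells, and Fabp3 is best known from heart and skeletal muscle.

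The 3 binding proteins are related in sequence, so the first question for their counts was whether their transcripts can be told apart. The start of each coding sequence (GENCODE transcript, build GRCm39) is given here, with capitals at the 60 of 120 positions that are identical in all 3.
Fabp3 (from base 1): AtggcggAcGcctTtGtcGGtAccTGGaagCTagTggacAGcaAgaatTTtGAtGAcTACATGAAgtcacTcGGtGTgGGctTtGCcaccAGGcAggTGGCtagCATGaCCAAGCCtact
Fabp4 (from base 1): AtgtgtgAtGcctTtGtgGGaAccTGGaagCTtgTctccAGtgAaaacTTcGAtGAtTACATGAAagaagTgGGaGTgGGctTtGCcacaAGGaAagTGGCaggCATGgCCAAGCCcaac
Fabp5 (from base 7): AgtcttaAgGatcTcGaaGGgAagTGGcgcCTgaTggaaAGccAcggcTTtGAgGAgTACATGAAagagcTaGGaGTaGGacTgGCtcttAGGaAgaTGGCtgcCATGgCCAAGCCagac

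Over the whole coding sequences 64.75% of aligned positions were identical between Fabp3 and Fabp4, 59.75% between Fabp4 and Fabp5 and 56.16% between Fabp3 and Fabp5. The longest run of bases shared by any of their protein-coding transcripts was 14 for Fabp3 and Fabp4, 12 for Fabp4 and Fabp5 and 10 for Fabp3 and Fabp5. Fabp4 (chr3:10268785-10273737, minus strand) and Fabp5 (chr3:10077602-10081674, plus strand) lie near each other on chromosome 3, and Fabp3 (chr4:130202388-130209259, plus strand) lies on chromosome 4. Exons of Fabp3 overlap those of Zcchc17 on the opposite strand by 292 bases. The library kit was directional, but the strand setting of the counting is not stated. The Zcchc17 entries summed to at most 0.494 CPM (reads per 1e6 counted reads) in any library. Zcchc17 has 8 entries, and how reads shared by several transcripts were counted is not stated. This level therefore does not limit how many reads from the opposite strand were counted on Fabp3.

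The deposited values were counts on RefSeq transcripts, and each level below is CPM after scaling by trimmed mean of M values (TMM), which corrects library totals for a few very abundant transcripts. Total counts ranged from 1256082 (VAT lean replicate 1) to 16614407 (SAT obese replicate 3), and the upper limit behind a count of 0 lay between 0.179 and 1.91 CPM on the TMM scale, depending on the library (3 counts, counting error only). Scd1 alone took 3.28% to 14.0% of the counts in SAT of lean mice and 23.7% to 25.7% in SAT of obese mice. The adipocyte markers (8 genes, summed) were at 3570 to 8176 CPM in every library, with Plin4 at 0 throughout. A marker at 0, here and below, is given as listed and not as unexpressed. Because the tissue was measured in bulk, fewer cells of a type and less RNA per cell cannot be told apart. An entry counts as called where edgeR's quasi-likelihood F-test gave it a p below 0.05 after Benjamini-Hochberg adjustment over all 13288 entries tested, and every adjusted p below comes from that test unless another is named.

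The members spanned a wide range of levels. Per kilobase of transcript, and among members with all or nearly all counts on 1 entry, Fabp4 was the most abundant in SAT of lean mice at 20921 ± 4018 CPM per kb (SD, n = 4), followed by Lpl at 11315 ± 352, Angptl4 at 360 ± 29.4, Gpihbp1 at 175 ± 44.7, Fabp5 at 93.5 ± 28.4 and Fabp3 at 0.766 ± 0.889. The means had the same order in the other 3 groups, although Gpihbp1 and Fabp5 lay within their spread in VAT, at 89.4 ± 26.9 and 65.8 ± 21.9 in lean mice and at 116 ± 44.8 and 76.7 ± 26.0 in obese mice. Fabp4 and Lpl together held 95.9% to 98.1% of all counts on the members. At the other end, Vldlr (chr19:27193862-27231631) had no count on any of its 12 entries, and Slc27a1 (chr8:72021095-72041866) had 36 counts on 3 of its 19 entries. Both genes have many transcripts in the table, and how reads shared by several transcripts were counted is not stated. The 2 genes are therefore given as listed at or near 0 and not as unexpressed. Lmf1 (chr17:25798048-25888183) had 239 counts on 3 of 5 entries, and its summed level lay between 0.424 and 3.13 CPM with overlapping groups. Its 1 tested entry passed in none of the comparisons.

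**Figure D1:**
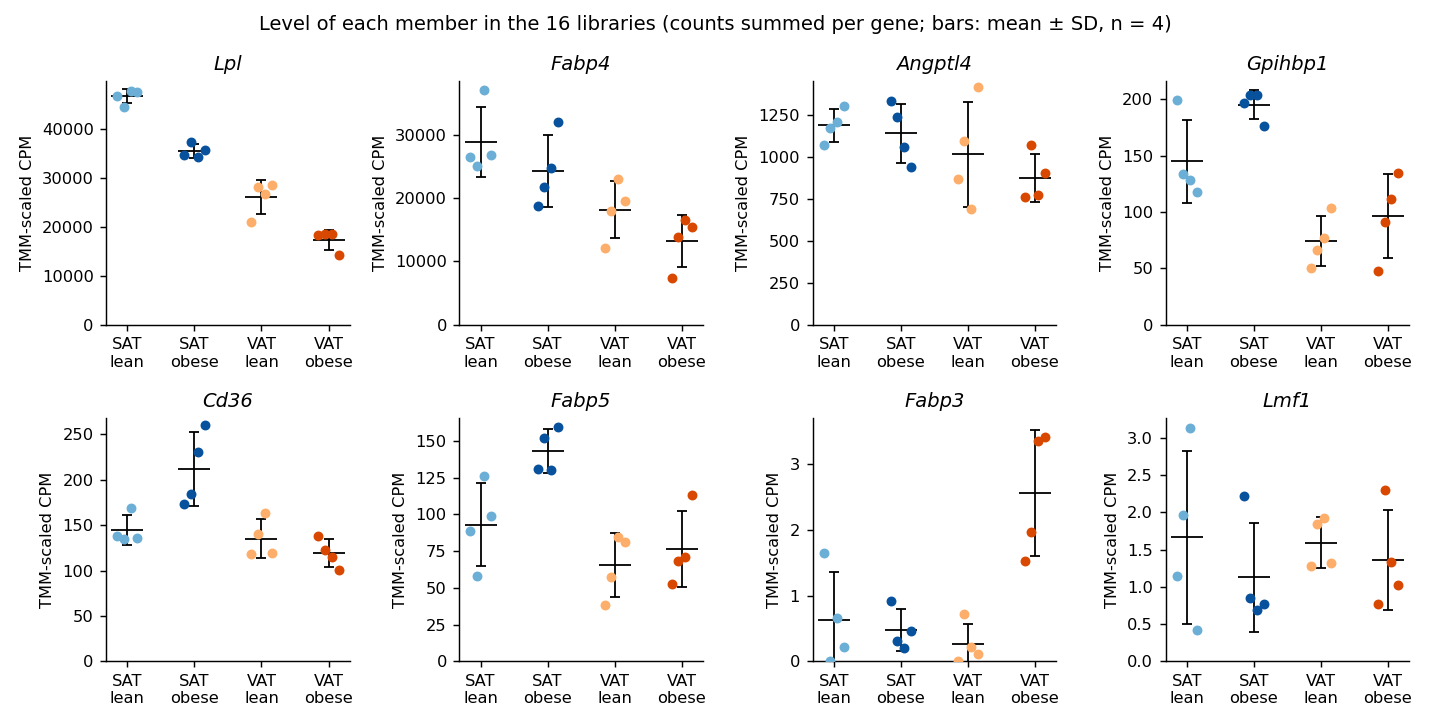
TMM-scaled CPM (vertical axis, starting at 0) of the 8 members with a tested entry, counts summed per gene, in each of the 16 libraries, with points for libraries and bars for mean ± SD (n = 4 mice). Lpl and Fabp4 reach 47577 and 36952 CPM, Fabp3 and Lmf1 stay at or below 3.41 and 3.13 CPM, and the 4 obese VAT libraries of Fabp3 stand above the lean ones.

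With obesity, Lpl fell in both tissues, Cd36 rose in SAT, and 1 of the 2 Fabp4 entries fell in VAT. Fabp3 was called higher in VAT, but at counts of at most 40 and after passing the filter on low values through the obese VAT libraries themselves. In SAT, 3 of the 13 tested entries were upregulated and 1 was downregulated, where 6.21% and 4.84% of all entries tested were called in those directions. The 3 were all entries of Cd36 and share their gene. Without the TMM factor 1 was upregulated and 2 were downregulated, the second being the Fabp4 entry XM_006530048 (logFC -0.46, adjusted p = 0.0304). In VAT, 1 was upregulated and 2 were downregulated, where 6.84% and 4.08% of all entries were called. Beyond a log2 fold change (logFC) of 1.5, the limit the study used, no member was called in SAT by edgeR, with or without adjustment of p, and only Fabp3 in VAT, where 2.75% and 3.17% of all entries were. DESeq2 called 1 in SAT, the Cd36 entry XM_006535625. The median logFC of the 13 entries was 0.19 in SAT and -0.26 in VAT, beside 0.01 and 0.02 over all entries.

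Markers of cell types outside this pathway also moved with obesity. In VAT, 3 of the 6 lymphocyte markers tested were called higher (summed 37.2 to 234 CPM in lean and 204 to 363 CPM in obese mice), and 2 of the 6 intestinal epithelium markers were called lower (13.2 to 41.0 and 15.9 to 18.5 CPM), where 6.89% and 5.28% of all gene sums were. The exocrine pancreas markers, mostly Cela1, summed to 71.1 to 143 CPM in lean SAT and 163 to 208 CPM in obese SAT, and to 41.9 to 61.8 CPM and 85.2 to 91.3 CPM in VAT. Of the 7 markers, 5 were at 0 in all lean SAT libraries and 2 in all obese SAT libraries, so the sum mostly follows 1 gene. Cela1 was the 1 of 3 called higher in each tissue, where 6.35% of gene sums were in SAT. The other 2 had a negative logFC in VAT and were not called. A sum carried by Cela1 does not identify exocrine pancreas. The part of any of these cell types in the values of the members was not tested.

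Lpl, the lipase itself (entry NM_008509, chr8:69284603-69360100, plus strand), was at 46721, 44467, 47577 and 47475 CPM in SAT of lean mice and at 34547, 37329, 34174 and 35574 CPM in SAT of obese mice. In VAT it was at 20904, 28120, 26576 and 28586 CPM in lean mice and at 18236, 18400, 18493 and 14234 CPM in obese mice. The groups did not overlap in either tissue, and the obese libraries were the lower ones. The logFC was -0.40 ± 0.12 (SE) in SAT (adjusted p = 0.0315) and -0.59 ± 0.12 in VAT (adjusted p = 0.00176). The call in SAT was lost without lean replicate 2, lean replicate 3 or obese replicate 3, at an adjusted p of up to 0.101. With counts summed per gene it was lost in 6 of 8 fits that left out a mouse (adjusted p of 0.0503 to 0.0996). Without the TMM factor the SAT value was -0.61 (adjusted p = 0.00019). The fall did not differ detectably between the tissues (difference -0.19 ± 0.15, adjusted p = 0.613). The summed adipocyte markers moved with it, at 6435 to 7466 CPM in lean SAT and 5486 to 6549 CPM in obese SAT, and at 6364 to 8176 CPM in lean VAT and 3570 to 5975 CPM in obese VAT. Of the 7 adipocyte markers tested as gene sums, 1 was lower in SAT and 4 in VAT, where 5.25% and 5.28% of all gene sums were. Their part in the fall of Lpl was not tested.

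Gpihbp1 and Angptl4, which act on the lipase outside the cell, passed in neither tissue. Gpihbp1, which anchors Lpl to capillary endothelium (NM_026730, chr15:75468474-75471331), had 118 to 200 CPM in lean SAT and 176 to 204 CPM in obese SAT. In VAT it had 50.3 to 103 CPM in lean mice and 47.4 to 135 CPM in obese mice. Its groups overlapped in both tissues, with a logFC of 0.43 ± 0.22 in SAT (adjusted p = 0.244) and 0.37 ± 0.23 in VAT (adjusted p = 0.358). Angptl4, the inhibitor (NM_020581, chr17:33992724-34000804), had 1069 to 1305 CPM in lean SAT and 940 to 1332 CPM in obese SAT, and its logFC was -0.06 ± 0.17 (adjusted p = 0.878). In VAT it ranged from 692 to 1417 CPM in lean mice and from 762 to 1070 CPM in obese mice, with a logFC of -0.21 ± 0.17 (adjusted p = 0.493).

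**Figure D2:**
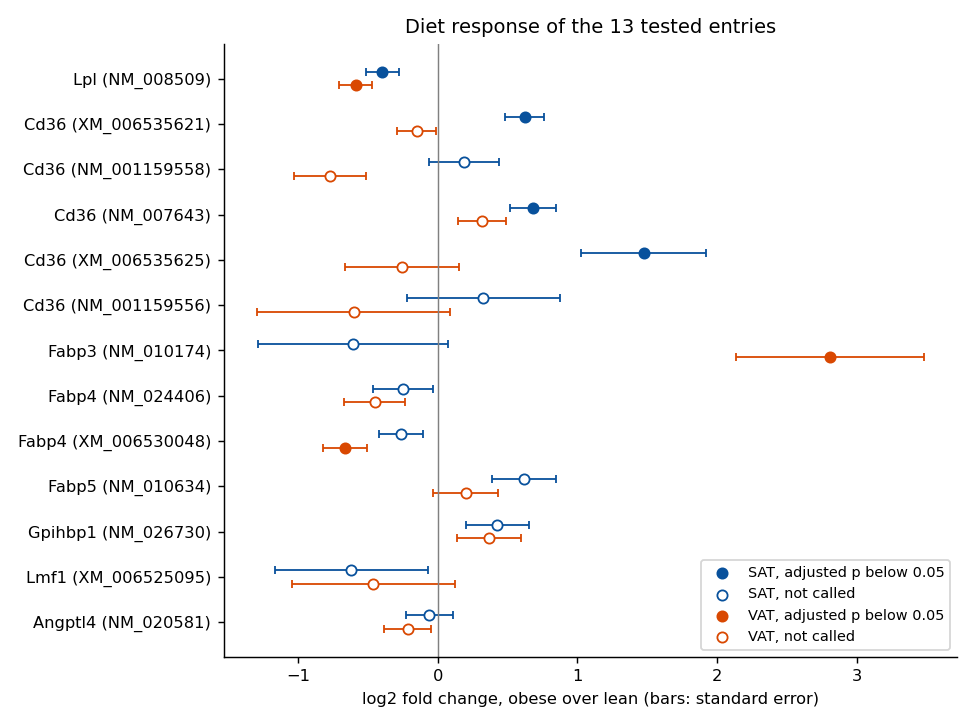
Log2 fold change of obese over lean (horizontal axis, bars for SE) of the 13 tested entries in SAT (blue) and VAT (orange), with filled points at an adjusted p below 0.05. Lpl lies left of 0 in both tissues, the Cd36 entry XM_006535621 lies at 0.62 in SAT and -0.15 in VAT, and Fabp3 at 2.81 in VAT lies farthest from 0.

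Cd36, the scavenger receptor that takes up long-chain fatty acids and oxidized lipoproteins (chr5:17986432-18094067, minus strand), had 12 entries, of which 6 held counts and 5 were tested. Since the treatment of reads shared by transcripts is not stated, its entries may lack such reads, and this limits its levels and any contrast between its entries. The entry with most counts, XM_006535621, was at 81.2, 81.5, 93.3 and 78.0 CPM in SAT of lean mice and at 110, 116, 140 and 149 CPM in SAT of obese mice. All 4 obese libraries were above all 4 lean ones (logFC 0.62 ± 0.14, adjusted p = 0.00504). In VAT the same entry was at 60.5, 74.5, 82.3 and 65.8 CPM in lean mice and at 78.3, 66.2, 64.9 and 49.8 CPM in obese mice. There the groups overlapped (logFC -0.15 ± 0.14, adjusted p = 0.583). The difference of the diet response between the tissues, tested with the mouse as a block, was -0.77 ± 0.20 (adjusted p = 0.0402). It was the 1 member entry called lower in that test and none was higher, where 1.29% and 0.888% of all entries were called. At an unadjusted p below 0.05, 1 was higher (Fabp3), and DESeq2 called 2 lower and none higher.

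The second entry, NM_007643, rose in SAT from 24.0 to 28.8 CPM in lean mice to 33.3 to 51.8 CPM in obese mice (logFC 0.68 ± 0.16, adjusted p = 0.00805). Both entries stayed called in SAT when any single mouse was left out. Without the TMM factor XM_006535621 stayed called (logFC 0.41, adjusted p = 0.0354) and NM_007643 did not (logFC 0.46, adjusted p = 0.0801). The third called entry, XM_006535625, had only 3 to 28 counts in a library of SAT. Its call (logFC 1.48 ± 0.45, adjusted p = 0.0354) was lost in 6 of 8 fits that left out a mouse, without the TMM factor, with no filter on low counts and in a fit of the SAT libraries alone, and its groups overlapped. NM_001159558 behaved otherwise. It did not pass in SAT (logFC 0.19 ± 0.25, adjusted p = 0.693), and in VAT it was at 27.4 to 56.1 CPM in lean mice and 19.3 to 26.0 CPM in obese mice, without overlap but short of the threshold (logFC -0.77 ± 0.26, adjusted p = 0.0569). It passed there with DESeq2 (adjusted p = 0.0435), with legacy=FALSE, without the TMM factor (adjusted p = 0.0386), with no filter on low counts, in a fit of the VAT libraries alone, and without lean replicate 1 or 4, while the other 6 fits without a mouse gave an adjusted p of up to 0.200.

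Summed over its entries, Cd36 was at 138, 135, 169 and 136 CPM in lean SAT and at 173, 184, 230 and 260 CPM in obese SAT, and the lowest obese library was above the highest lean one. The logFC of the sum was 0.54 ± 0.14 in SAT (adjusted p = 0.0151) and -0.23 in VAT (adjusted p = 0.349), and the difference between the tissues was -0.76 ± 0.19 (adjusted p = 0.0372). In SAT 6.35% of all gene sums were called higher, in VAT 6.89%, and in the difference 1.62% were called lower and 0.854% higher. The rise of the sum in SAT was lost without lean replicate 2, obese replicate 3 or obese replicate 4, at an adjusted p between 0.0555 and 0.0663, and without the TMM factor (adjusted p = 0.0806). The difference between the tissues, of the sum and of XM_006535621, was not called without lean replicate 2, 3 or 4 or obese replicate 3 or 4, at an adjusted p of up to 0.172. Both were likewise lost without the TMM factor (-0.53 and -0.58, adjusted p = 0.111 and 0.0973), and that of the entry without the block for the mouse. Macrophages also express Cd36. The macrophage markers (8 genes, summed) were at 751 to 1022 CPM in lean SAT and 1301 to 1739 CPM in obese SAT, and at 1253 to 1482 CPM in lean VAT and 2561 to 3322 CPM in obese VAT. Of the 7 tested, 4 were called higher in SAT, where Cd36 was, and 6 in VAT, where it was not. Their part in the Cd36 values was not tested.

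**Figure D3:**
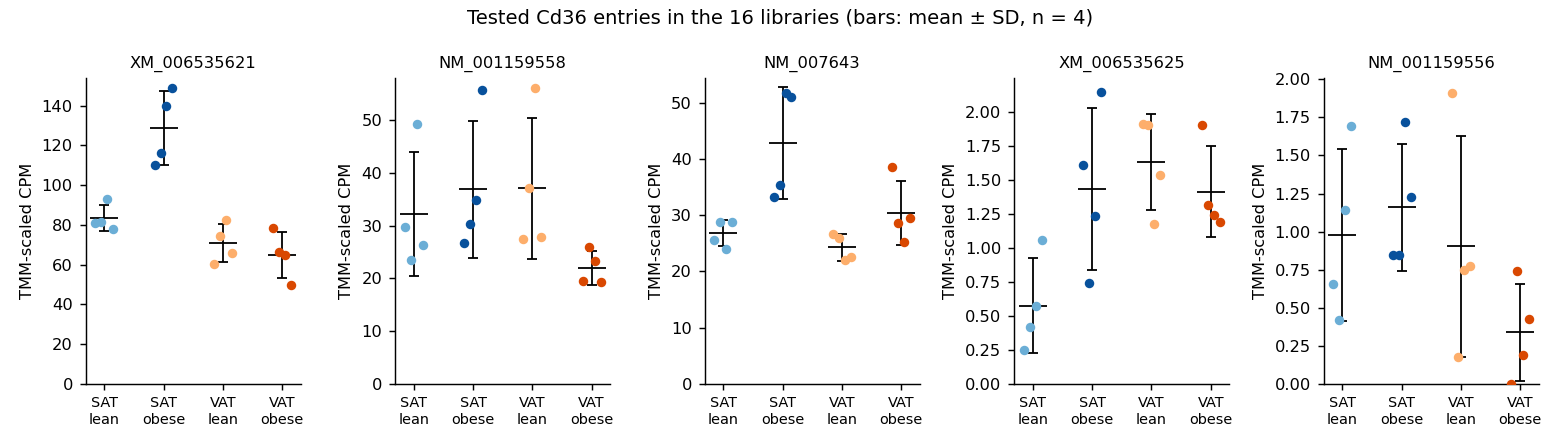
TMM-scaled CPM (vertical axis, starting at 0 and differing between panels) of the 5 tested Cd36 entries in the 16 libraries, with points for libraries and bars for mean ± SD (n = 4 mice). In XM_006535621 and NM_007643 the obese SAT libraries lie above all lean SAT libraries, while in NM_001159558 they overlap.

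Cd36 is the member with an entry called in the difference of the diet response, a call that was lost in 5 of 8 fits without a mouse and that NM_007643 did not share (-0.35, adjusted p = 0.549). Its RefSeq promoter (250 bases before to 50 after the start, chr5:18040845-18041144 of GRCm39, minus strand, read 5′ to 3′) is shown. The table holds 1 start for Cd36, and it lies within the annotated gene. Capitals mark the motifs that were found among 5 searched on both strands.
Cd36: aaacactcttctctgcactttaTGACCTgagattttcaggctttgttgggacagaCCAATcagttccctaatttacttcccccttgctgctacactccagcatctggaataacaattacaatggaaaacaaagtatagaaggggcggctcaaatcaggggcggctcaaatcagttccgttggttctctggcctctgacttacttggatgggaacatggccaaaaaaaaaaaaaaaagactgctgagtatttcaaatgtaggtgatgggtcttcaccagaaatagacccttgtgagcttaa

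The core of the nuclear receptor element, AGGTCA (the core site), was found on the opposite strand, as TGACCT, from -228 to -223, and a CCAAT box was found from -195 to -191. Among 32851 promoters of the same length, 16.3% hold the core site and 37.4% hold CCAAT. The E-box CACGTG (7.15% of promoters), TATAAA (13.6%) and a direct repeat of the core site spaced by 1 base (0.0396%) were not found in this window. The promoter of Fabp3 (chr4:130202281-130202580, plus strand) held none of the 5.

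Fabp3 had the largest fold change among the member entries, at very low counts. In VAT of lean mice it had 0, 12, 2 and 1 counts in the 4 libraries, and in VAT of obese mice 4, 24, 35 and 40 counts. As TMM-scaled CPM these were 0, 0.715, 0.214 and 0.110 in lean mice and 1.53, 1.97, 3.34 and 3.41 in obese mice. Every obese library was above every lean one (logFC 2.81 ± 0.67, adjusted p = 0.00778). The library at 0 is the shallowest of the series, where 0 counts leave room for up to 1.91 CPM on the same scale, which is above 1 of the obese values. Without that mouse the logFC was 2.70 (adjusted p = 0.00639), and the entry stayed called without any other single mouse (logFC 2.47 to 4.06). DESeq2 gave 2.92 (adjusted p = 0.00307). The entry passed the filter on low values only because of the VAT libraries of obese mice and 1 of lean SAT, so a difference in VAT was built into its being tested.

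In SAT, Fabp3 was at 1.65, 0, 0.665 and 0.212 CPM in lean mice and at 0.920, 0.317, 0.206 and 0.461 CPM in obese mice. These groups overlapped (logFC -0.60 ± 0.68, adjusted p = 0.634), and the difference of the diet response between the tissues did not pass (2.91 ± 1.08, adjusted p = 0.179), except without lean replicate 2. Skeletal muscle markers (8 genes, summed) were between 0.637 and 2.68 CPM in every group, with Tnnt3 at 0 throughout. Brown and beige adipocyte markers (7 genes) were at 44.4 to 94.2 CPM in lean VAT and 66.7 to 85.3 CPM in obese VAT. Of the 5 tested, 2 were called higher in VAT (Ucp1 and Otop1) and 2 lower (Cidea and Dio2), named after their values were seen, where 6.89% and 5.28% of all gene sums were called. The markers of lipid-associated macrophages (7 genes) rose from 156 to 250 CPM in lean VAT to 540 to 2045 CPM in obese VAT, with 6 of 6 tested genes called higher, where 6.89% of all gene sums were. In SAT they were at 274 to 377 CPM in lean mice and 379 to 514 CPM in obese mice. The part of these cells in the Fabp3 values was not tested.

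Fabp4, the main adipocyte binding protein, was counted almost entirely on NM_024406. Its level there was 26043, 24682, 36566 and 26522 CPM in lean SAT and 18449, 21338, 24352 and 31769 CPM in obese SAT. In VAT it was 11975, 17706, 22702 and 19251 CPM in lean mice and 7210, 13661, 16351 and 15189 CPM in obese mice. The groups overlapped in both tissues, with a logFC of -0.25 ± 0.22 in SAT (adjusted p = 0.526) and -0.45 ± 0.22 in VAT (adjusted p = 0.212). With no filter on low counts the VAT value passed, at about the same size. The second entry, XM_006530048, was downregulated in VAT, from 253 ± 39.5 to 160 ± 36.1 CPM (SD, n = 4; logFC -0.66 ± 0.16, adjusted p = 0.00789), with 1 obese library above the lowest lean one. The call was lost when the Fabp4 entries were summed.

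Fabp5 (NM_010634) was at 88.7, 57.8, 126 and 99.0 CPM in lean SAT and at 131, 152, 130 and 160 CPM in obese SAT. The obese libraries were all above the lean ones, but the test did not pass (logFC 0.62 ± 0.23, adjusted p = 0.0841). Alternatives under which it passed included those without lean replicate 3, with no filter on low counts and in a fit of the SAT libraries alone. In VAT it was at 38.2 to 84.4 CPM in lean mice and 52.3 to 113 CPM in obese mice (logFC 0.20 ± 0.23, adjusted p = 0.664).

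Between the depots of the same mouse, Lpl, Gpihbp1, Fabp4 and Fabp5 were lower in VAT in both diets, and Cd36 and Angptl4 in obese mice. In lean mice 5 of the 13 entries were lower in VAT than in SAT and none was higher, where 6.84% and 7.98% of all entries were called. At an unadjusted p below 0.05, 1 was higher, the Cd36 entry XM_006535625, and DESeq2 called 5 lower and none higher. Without the TMM factor 3 were lower and that entry was called higher (logFC 1.61, adjusted p = 0.0475), as it was without the block for the mouse. In obese mice 9 were lower and 1, Fabp3, was higher, where 13.5% and 15.9% of all entries were called. The median logFC of the 13 entries was -0.35 in lean and -0.83 in obese mice, beside 0.01 and 0.04 over all entries. The 13 entries include 5 of Cd36 and 2 of Fabp4, which share their gene. Without the TMM factor the median of all entries shifted to 0.15 in lean and 0.37 in obese mice. The logFC in obese mice was then -0.70 for Lpl, -0.75 for Gpihbp1 and -0.67 for the Cd36 entry XM_006535621, all still called.

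Lpl was lower in VAT in 8 of 8 mice. The log2 ratio of VAT to SAT was -1.16, -0.66, -0.84 and -0.73 in lean mice (logFC -0.85 ± 0.11, adjusted p = 3.7e-06) and -0.92, -1.02, -0.89 and -1.32 in obese mice (logFC -1.04 ± 0.11, adjusted p = 1.4e-07). The adipocyte markers overlapped between the depots in both diets, but in obese mice their range was lower in VAT (3570 to 5975 CPM) than in SAT (5486 to 6549 CPM). Their part in the depot difference of Lpl was not tested.

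Gpihbp1 was lower in VAT with a logFC of -0.93 ± 0.21 in lean mice (adjusted p = 0.00387) and -1.08 ± 0.21 in obese mice (adjusted p = 0.000446), again in 8 of 8 mice. Its ratios spread widely, from -1.99 to -0.18 in lean mice. The endothelial markers (8 genes, summed, Pecam1 at 0) overlapped between the depots, at 174 to 317 CPM in lean SAT and 207 to 275 CPM in lean VAT, and at 255 to 359 CPM in obese SAT and 228 to 331 CPM in obese VAT. Removal of visible vessels before storage limits what these levels say of the intact depot.

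The binding proteins Fabp4 (NM_024406) and Fabp5 were lower in VAT in both diets. For Fabp4 the logFC was -0.69 ± 0.13 in lean mice (adjusted p = 0.000481) and -0.91 ± 0.13 in obese mice (adjusted p = 1.0e-05). For Fabp5 it was -0.48 ± 0.16 in lean mice (adjusted p = 0.0424) and -0.95 ± 0.15 in obese mice (adjusted p = 5.3e-05). The Fabp5 call in lean mice was lost without lean replicate 1, 3 or 4 or obese replicate 3, and also without the TMM factor. The XM_006530048 entry of Fabp4, at -0.41 ± 0.14 in lean mice (adjusted p = 0.0491), was lost without lean replicate 1, 2 or 3 or obese replicate 3 and without the TMM factor, and at -0.83 ± 0.14 in obese mice (adjusted p = 7.5e-05) it was kept in each. The logFC in obese mice without the TMM factor was smaller, at -0.57 for NM_024406, -0.49 for XM_006530048 and -0.61 for Fabp5, all still called.

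Cd36 was lower in VAT of obese mice. XM_006535621 had a logFC of -1.01 ± 0.14 there (adjusted p = 8.2e-06), and in lean mice it had -0.24 ± 0.14 (adjusted p = 0.301). Summed over entries, the log2 ratios of VAT to SAT were -0.22, 0.05, -0.05 and -0.19 in lean mice and -0.33, -0.58, -1.003 and -1.37 in obese mice, without overlap. NM_001159558 (logFC -0.71 ± 0.18, adjusted p = 0.00454) and NM_007643 (logFC -0.51 ± 0.17, adjusted p = 0.0246) were also called in obese mice. Both were lost without the TMM factor. NM_001159558 was lost as well without obese replicate 4, and NM_007643 without obese replicate 3 or 4. Angptl4 was lower in VAT of obese mice by a small amount (logFC -0.38 ± 0.13, adjusted p = 0.0329), a call lost without obese replicate 1 or 3, and without the TMM factor its logFC was -0.04. Fabp3 was higher in VAT in 4 of 4 obese mice (logFC 2.55 ± 0.62, adjusted p = 0.00333), where it had passed the filter on low values through the same VAT libraries.

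**Figure D4:**
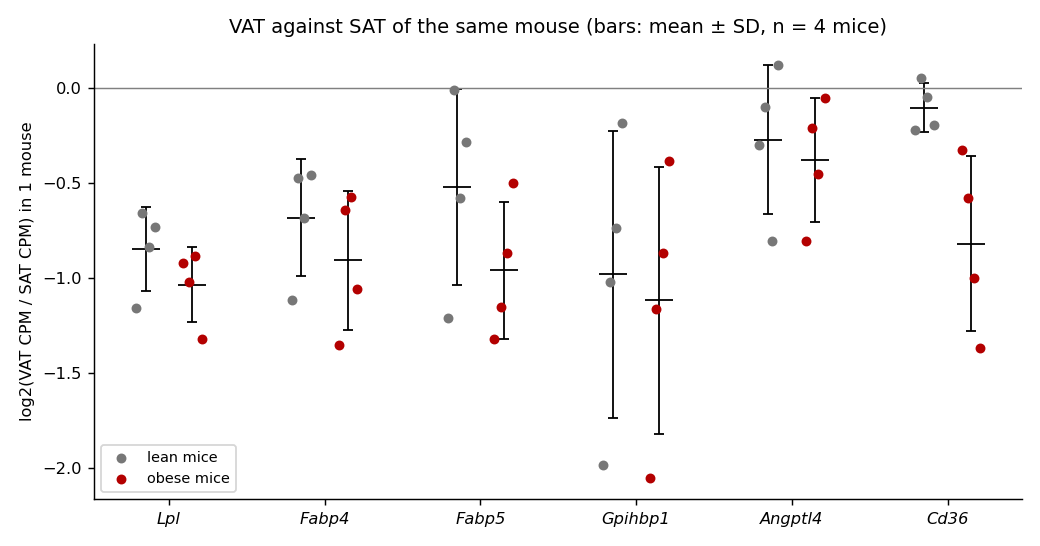
Log2 ratio of VAT to SAT level (vertical axis) of 6 members, counts summed per gene, in each lean mouse (grey) and obese mouse (red), with bars for mean ± SD (n = 4 mice). All points of Lpl, Fabp4, Fabp5 and Gpihbp1 lie below 0, and only for Cd36 do the obese mice all lie below the lean ones.

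The other genes of the pathway were taken from 5 lists (lipase partners and inhibitors, lipoprotein receptors, fatty acid transport and activation, other binding proteins of the family, and regulators). Of their 64 genes, 36 were tested as gene sums. In SAT 8 rose with obesity (22.2% of those tested) and none fell, beside 6.35% and 5.25% of all gene sums. In VAT none was called in either direction, beside 6.89% and 5.28%, although 5 were higher and 1 lower at an unadjusted p below 0.05, and DESeq2 called 1, Got2. In SAT 2 were lower at an unadjusted p below 0.05, and DESeq2 called 9 higher and none lower. In the difference of the diet response 3 were lower and none was higher, beside 1.62% and 0.854% of all gene sums. At an unadjusted p 1 was higher there, and DESeq2 also called 1 higher. Leaving out the TMM factor gave 2 lower and 1, Got2, higher in the difference.

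Among the receptors, 3 were tested and all 3 rose in SAT. Sorl1, a sorting receptor, rose from 5.10 ± 1.48 to 18.5 ± 3.33 CPM (SD, n = 4; logFC 1.85 ± 0.25, adjusted p = 4.8e-05). Scarb1, the high-density lipoprotein receptor, had a logFC of 0.95 ± 0.22 (adjusted p = 0.00604), and Scarb2, a lysosomal membrane protein of the same family as Cd36, had 0.42 ± 0.10 (adjusted p = 0.0108).

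In transport and activation, 3 of 11 tested genes rose in SAT. Acsl1, which couples fatty acids to coenzyme A, rose from 163 ± 43.4 to 327 ± 94.4 CPM (logFC 0.99 ± 0.23, adjusted p = 0.00739). Acsl5, of the same enzyme family, had a logFC of 0.70 ± 0.16 (adjusted p = 0.00492). Zdhhc5, a palmitoyltransferase that modifies Cd36, had 0.33 ± 0.10 (adjusted p = 0.0403).

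Of the 9 lipase partners tested, Sel1l, an endoplasmic reticulum protein needed for the secretion of Lpl, rose from 46.5 ± 1.65 to 79.7 ± 11.6 CPM in SAT (logFC 0.77 ± 0.13, adjusted p = 0.000587). Of the 8 regulators tested, Nr1h3 (liver X receptor alpha) rose (logFC 0.78 ± 0.23, adjusted p = 0.0313). None of the 5 tested genes of the other binding proteins was called in SAT with all mice included.

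The 3 genes whose response was lower in VAT than in SAT were Acsl1 (difference -1.33 ± 0.14, adjusted p = 8.8e-06), Sorl1 (-2.41 ± 0.31, adjusted p = 0.000124) and Sel1l (-0.82 ± 0.21, adjusted p = 0.0379). In VAT itself Acsl1 was at 144 ± 37.3 CPM in lean and 117 ± 28.5 CPM in obese mice, and Sorl1 at 31.2 ± 8.73 and 21.9 ± 6.25 CPM, neither called. Acsl1 and Sorl1 stayed called in the difference when any single mouse was left out and without the TMM factor. Sel1l was lost without lean replicate 2, 3 or 4, without obese replicate 3 or 4, and without the TMM factor. In SAT, Sorl1, Scarb1, Acsl1, Acsl5 and Sel1l stayed called in each such fit. Scarb2 was lost without obese replicate 4, Nr1h3 stayed called only without lean replicate 1, lean replicate 4 or obese replicate 3, and Zdhhc5 only without lean replicate 1. With a mouse left out, between 5 and 9 genes were higher in SAT and at most 1 in VAT. Lower calls in SAT were Fabp7 without lean replicate 3 and Zdhhc4 without obese replicate 1. Without the TMM factor 5 were higher and 1, Zdhhc4, lower in SAT.

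**Figure D5:**
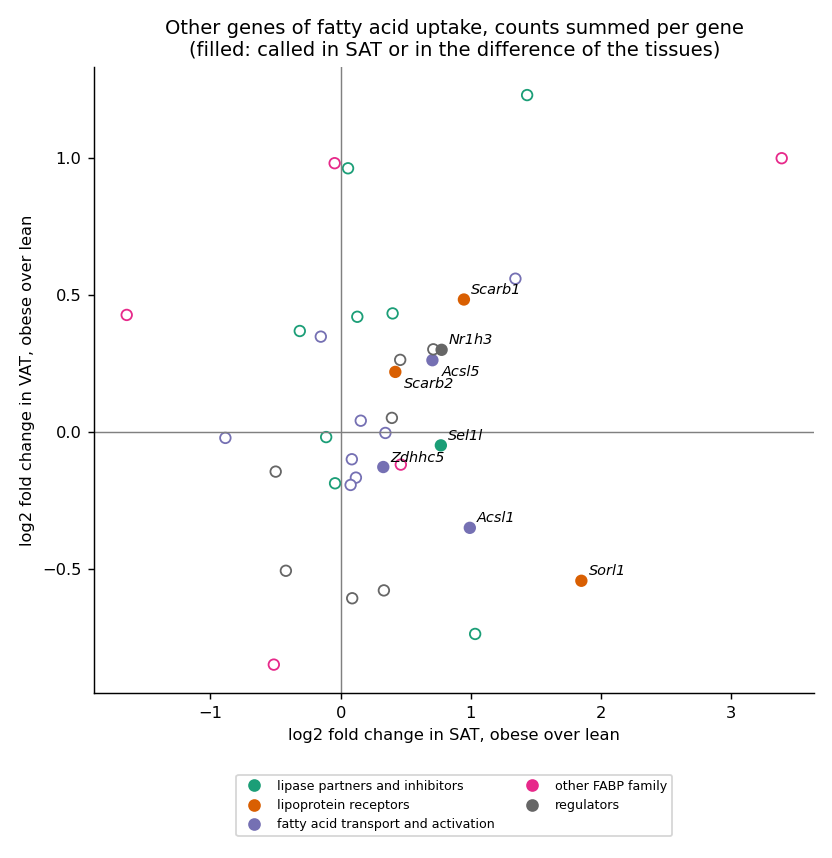
Log2 fold change of obese over lean in SAT (horizontal axis) against VAT (vertical axis) for the 36 tested genes of the 5 other lists, counts summed per gene, with filled and named points for those called in SAT or in the difference. All 8 named genes lie right of 0, with Sorl1 at 1.85 in SAT and -0.54 in VAT.

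For each member with an entry called with diet, the genes most like it over the 16 libraries were sought among gene sums. The measure was the root mean square (RMS) difference of centred log2 CPM. For Lpl they were Auh (0.155) and Cav2 (0.161), where Lpl itself varied by 0.557 about its mean. For Cd36 they were Mob1b (0.164), Tgoln1 (0.165) and Ppp1cb (0.171), where Cd36 varied by 0.363. For Fabp4 they were Ghr (0.204), Cisd1 (0.204) and Mgst3 (0.215), where Fabp4 varied by 0.561. The Fabp4 sum used here was itself not called with diet (adjusted p = 0.496 in SAT and 0.149 in VAT). For Fabp3 they were Bcl2l15 (0.680), Fgd3 (0.722) and Kcnip3 (0.764), where Fabp3 varied by 1.30.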

How the data were processed

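Per the labels and the study's methods, poly(A) RNA was sequenced as directional paired-end libraries, trimmed, aligned to GRCm39 with HISAT2 2.2.0 and counted on RefSeq features with HTSeq 0.13.5. How the counting treated shared reads and strand is not given in the sources used here. The authors deposited raw counts and CPM for each library, 32 value columns in all. The deposited CPM equal the counts scaled to the library total. Levels here are counts scaled with TMM factors computed here.

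Entries above 1 CPM in 3 or more libraries were tested with edgeR 4.0.16 (quasi-likelihood F-test, legacy=TRUE, R 4.3.3), all 16 libraries in one fit, with DESeq2 1.42.0 as an alternative tool. The SE is the absolute logFC divided by the square root of F. Diets were compared without a block. Depots, and the difference of the diet response, were compared with a term per mouse, since the methods state that each mouse gave both tissues. As a check, deviations from the group mean correlated at -0.00900 to 0.173 in the 8 pairs of 1 mouse and at -0.154 to 0.121 in 24 pairs of different mice. Pairs of 1 mouse also share a replicate number. Lean and obese libraries of 1 tissue with the same number correlated at -0.0942 to 0.173, so the check cannot tell mouse from replicate number. Pairs of libraries in a group differed by more than counting error. The fits were tested on simulated data in which all entries had the same spread. Of 2-fold changes, 53% in SAT, 41% in VAT and 10% in the difference of the diet response were called in the right direction. Of 4-fold changes, 90%, 92% and 73% were. A value that did not pass, most of all in the difference, is therefore not shown to be unchanged.

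The members and gene lists were chosen with earlier results of these data known. Named genes are all members and the called genes of the 5 other pathway lists. For each member with an entry called with diet, the 3 gene sums nearest in pattern are named, except 1 without a symbol. Also named are single markers at 0 and, among called markers, Cela1, Ucp1, Otop1, Cidea and Dio2. Scd1 is named for its share of counts and Zcchc17 for its overlap with Fabp3. Other markers, summed in CPM over all groups, were keratinocyte (0 to 2.64), mesothelium (at most 1.40 in SAT, 249 to 607 in VAT), intestinal epithelium in SAT (12.1 to 24.0), lymphocyte in SAT (6.65 to 13.8), progenitor and stromal (3312 to 6974), and brown and beige adipocyte in SAT (60.0 to 121). Of the 5 brown and beige markers tested, 1 was called higher and 2 lower in SAT of obese mice, where 6.35% and 5.25% of all gene sums were.

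Coding sequences and positions came from GENCODE on GRCm39. Promoters came from RefSeq (GRCm38.p6) and were matched exactly to GRCm39. The promoter table was searched for all members and held Cd36, Fabp3, Lmf1, Vldlr and Slc27a1.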

Additional observations from a re-analysis of the deposited data

Results flagged for a closer look

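In 5 of 36 groups of 4 libraries, 1 library stood far from the other 3. In 1 of the 5, Slc27a1 in VAT of obese mice, this was fixed by 3 libraries being at 0. For the other 4, chance gives about 1 in 20 groups. Lpl was lowest in VAT of obese replicate 4 at 14234 CPM, the next being 18236 CPM. Cd36 summed over its entries was highest in SAT of lean replicate 3 at 168.747 CPM, beside 138 CPM for the next. Fabp4 summed over its entries was highest in the same library at 36952 CPM, beside 26779 CPM. Lmf1 was highest in SAT of obese replicate 1 at 2.22 CPM, beside 0.845 CPM. Slc27a1 was at 0.164 CPM in VAT of obese replicate 2 and listed at 0 in the other 3, on 2 counts.

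The diet response of Cd36 differed between VAT and SAT, by -0.77 on the log2 scale for XM_006535621 and by -0.76 for the sum of the entries, in the test of the difference with the mouse as a block. Both calls were lost in 5 of 8 fits that left out a mouse and without the TMM factor (adjusted p = 0.0973 and 0.111).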

How the results depend on the processing

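No called value of a member changed sign under any alternative run. The number of members called moved by more than 1.5 times as follows, and the cause was not tested unless the construction shows it. In SAT (4 called) it was 2 with counts summed per gene, where the 5 Cd36 entries become 1, and 0 beyond a logFC of 1.5; leaving out a mouse gave 2 to 4. In VAT (3 called) it was 5 with no filter on low counts and 5 with a replicate block by number, and 1 beyond a logFC of 1.5. In the difference (1 called) it was 0 with CPM as deposited and 0 with no replicate block, and 2 with no filter, with DESeq2 or with legacy=FALSE; leaving out a mouse gave 0 to 2. In lean depots (5 called) it was 3 with legacy=FALSE, and leaving out a mouse gave 3 to 5. The replicate block groups lean and obese mice by number, and no label says what else they share. Deviations of lean and obese libraries of 1 tissue correlated at -0.0942 to 0.173 (median 0.0679) for the same number. For different numbers they correlated at -0.146 to 0.112 (median -0.0173). With that block Fabp5 also passed in SAT, and in VAT the Cd36 entry NM_001159558, the Fabp4 entry NM_024406 and the Fabp4 sum (-0.51, adjusted p = 0.0167). CPM as deposited, an alternative chosen after seeing the data, moved the median of all entries to -0.20 in SAT and to 0.37 between depots of obese mice. All entries called higher and lower became 457 and 1699 in SAT (825 and 643 with TMM), 360 and 102 in the difference (118 and 171), 1420 and 610 between lean depots (1061 and 909), and 3966 and 845 between obese depots (2116 and 1789). DESeq2 gave no adjusted p for Fabp3, Lmf1 and the Cd36 entries XM_006535625 and NM_001159556 in the difference. Depth limits what can be said of Fabp3, Lmf1, Slc27a1 and Vldlr, since 1 count equals 0.0596 to 0.637 CPM on the TMM scale.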
